A study of Mus musculus with 9 samples.

Results

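The subject is 10 claudin genes, Cldn1, Cldn2, Cldn3, Cldn4, Cldn6, Cldn7, Cldn8, Cldn15, Cldn18 and Cldn23, chosen by their symbols from the 50600 genes of the deposited table, and described in mouse intestinal organoids and tumoroids. Claudins are small membrane proteins that span the membrane several times and join neighbouring epithelial cells at the tight junction. Some, such as claudin-2 and claudin-15, form pores that let small cations and water pass between cells, while others, such as claudin-1, claudin-4 and claudin-8, mainly tighten the barrier. In the intestine, claudin-2 is known chiefly from crypts and claudin-15 from crypts and villi, and the 2 carry sodium back into the lumen for nutrient uptake.

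RNA was sequenced from 9 libraries in 3 groups of 3. The 6 organoid libraries came from normal (WT) small intestine, with the strain given as C57BL/6, taken according to the methods from mice of mixed background between 2 and 5 months old. They were kept for 24 hr in organoid medium (EGF, Noggin and R-spondin1) mixed in equal parts with medium conditioned by tumoroids (T-cM) or by WT organoids (WT-cM). The other 3 libraries were untreated tumoroids, labelled strain MIX, grown from intestinal tumours of Apc1638N/+ mice over 6 months old, which the methods describe as kept without R-spondin1. Apc1638N is a germline mutation of 1 Apc copy, carried by every cell of the mouse. The paper describes its intestinal tumours as derived from spontaneous Apc loss, and the state of the other copy in these libraries was not tested. Tumoroids thus differed from organoids in genotype, donor, age and, by the methods, medium, and these cannot be told apart. The design text gives 3 mice for the organoids and 3 for the tumoroids. For the 6 organoid libraries the deposited title and treatment field name opposite media. The names T-cM-titled and, for the other group, WT-cM-titled organoids follow the title here, and every difference between them turns round if the treatment field is right, while a comparison of tumoroids with all 6 organoid libraries does not depend on it.

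Reads counted on genes ranged from 16541635 to 25170966 per library. At the least, 3 counts were worth 0.103 to 0.204 CPM (counts scaled to the TMM-normalised library size), a limit that covers counting error only. Levels are given in TPM, which is divided by gene length and lets genes be set side by side, and differences in log2 CPM from edgeR. All 9 libraries carried the 8 epithelial markers checked above 1 TPM, with summed levels of 10530 to 15020 TPM in organoids and 11970 to 13750 TPM in tumoroids. Enterocyte markers summed to 29120 to 63950 TPM in organoids and 136.9 to 558.7 TPM in tumoroids, Paneth cell markers to 15840 to 20510 TPM against 974 to 8816 TPM, goblet cell markers to 3891 to 4776 TPM against 400 to 1854 TPM, and crypt stem cell markers to 76.8 to 396 TPM against 597 to 805 TPM. Some members went against their list's sum, and were named after their values were seen. Of the Paneth list, Mmp7 averaged 171 TPM in organoids and 961 TPM in tumoroids (edgeR log2 fold change 1.98, adjusted p = 0.00222). Of the stem cell list, Olfm4 averaged 82.4 TPM against 17.8 TPM (-2.59, adjusted p = 0.0918). Defa24 made up a large part of the Paneth sum in organoids, at a mean of 11350 TPM. In such bulk samples, fewer cells of a type and less RNA per cell cannot be told apart.

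The bases before the start are shown for 4 of the genes, Cldn4 and Cldn15 as the abundant claudins called in tumoroids, and Cldn2 and Cldn18 as those that differed between the organoid groups. They were taken from RefSeq (GRCm38.p6), which had an entry for 8 of the 10 genes and none for Cldn8 and Cldn23. Each reads 5′ to 3′ on the strand of the gene, towards the start site. Capitals mark matches on either strand to 1 of 6 short motifs, the AP-1 site TGANTCA, the TEAD site GGAATG, the TCF/LEF site CTTTGAT, the CDX site TTTATG, the Snail and Zeb E-box CAGGTG and the Grainyhead-like site AACNNGTT. The 250 bases before the start held them in 6.75%, 12.6%, 3.21%, 10.8%, 17.2% and 3.64% of 32841 promoters, in that order.
Cldn4, chr5:134946935-134947184, minus strand: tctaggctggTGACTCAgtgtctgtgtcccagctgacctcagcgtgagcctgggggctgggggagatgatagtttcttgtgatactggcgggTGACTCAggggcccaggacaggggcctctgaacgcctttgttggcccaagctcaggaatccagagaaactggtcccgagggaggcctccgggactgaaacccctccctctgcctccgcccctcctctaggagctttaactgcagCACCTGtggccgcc
Cldn15, chr5:136967619-136967843, plus strand: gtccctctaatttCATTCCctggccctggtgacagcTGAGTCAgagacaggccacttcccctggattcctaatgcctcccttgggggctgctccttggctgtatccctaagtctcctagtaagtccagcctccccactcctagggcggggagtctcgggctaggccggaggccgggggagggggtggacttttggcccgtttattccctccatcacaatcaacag
Cldn2, chrX:139800558-139800807, plus strand: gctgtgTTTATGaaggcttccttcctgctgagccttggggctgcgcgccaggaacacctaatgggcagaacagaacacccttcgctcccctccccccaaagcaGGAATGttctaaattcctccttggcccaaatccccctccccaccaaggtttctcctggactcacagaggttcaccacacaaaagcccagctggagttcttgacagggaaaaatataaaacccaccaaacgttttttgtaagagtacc
Cldn18 upstream start, chr9:99717268-99717517, minus strand: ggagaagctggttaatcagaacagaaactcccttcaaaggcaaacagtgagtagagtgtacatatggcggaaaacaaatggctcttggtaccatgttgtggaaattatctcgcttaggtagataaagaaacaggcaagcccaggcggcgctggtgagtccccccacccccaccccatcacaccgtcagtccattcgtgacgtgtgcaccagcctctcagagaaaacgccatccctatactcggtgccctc
Cldn18 downstream start, chr9:99710064-99710313, minus strand: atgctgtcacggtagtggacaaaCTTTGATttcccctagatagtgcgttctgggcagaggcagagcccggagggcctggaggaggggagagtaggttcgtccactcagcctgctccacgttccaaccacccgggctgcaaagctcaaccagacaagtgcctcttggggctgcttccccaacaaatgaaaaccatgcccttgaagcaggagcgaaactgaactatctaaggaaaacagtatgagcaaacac
The Cldn4 window held 2 AP-1 matches and 1 E-box match, the Cldn15 window 1 TEAD and 1 AP-1 match, and the Cldn2 window 1 CDX and 1 TEAD match. The upstream Cldn18 start had no match and the downstream start had 1 TCF/LEF match. Of the windows not shown, those of Cldn1 and Cldn3 held no match and the upstream one of Cldn7 held 1 TEAD match. The other Cldn7 window lies mostly in annotated Cldn7 exons, as do its 2 E-box matches in whole or in part, and the 1 E-box match of the Cldn6 window lies in an exon of Cldn6. The Cldn15 window is shown without the bases nearest its start, which lie in an exon of another Cldn15 transcript. A match is a description of the letters only.

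Of the 10 claudins, 5 supplied nearly all of the claudin RNA in every library. The summed level of the 10 genes was 2638 to 3030 TPM in the 6 organoid libraries and 2775 to 3130 TPM in the 3 tumoroids, between 0.264% and 0.313% of all TPM, so the ranges overlapped. In organoids Cldn15 had the highest level at 896 TPM ± 91.5 (SD, n = 6), followed by Cldn7 at 763 TPM ± 7.56, Cldn3 at 662 TPM ± 103, Cldn2 at 225 TPM ± 65.8 and Cldn4 at 209 TPM ± 40.6. Every organoid value of Cldn15 lay above every value of Cldn7, while Cldn3 overlapped both and Cldn2 overlapped Cldn4. Cldn23 followed at 40.2 TPM ± 8.39, and Cldn8 at 2.18 TPM ± 1.10 overlapped Cldn18 at 0.883 TPM ± 0.508. Cldn6 and Cldn1 were last, at 0.0667 TPM ± 0.0794 and 0.055 TPM ± 0.0339.

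In tumoroids the order was another. Cldn7 came first at 849 TPM ± 181 (SD, n = 3) followed by Cldn4 at 817 TPM ± 325 and Cldn3 at 600.5 TPM ± 101. Cldn15 came after Cldn3, at 313 TPM ± 144.5, next to Cldn2 at 307.5 TPM ± 88.2. The values of Cldn7, Cldn4 and Cldn3 overlapped, and so did those of Cldn15 and Cldn2. Cldn23 at 51.2 TPM ± 10.1 overlapped Cldn8 at 32.7 TPM ± 17.97, and Cldn1 at 3.22 TPM ± 4.735 overlapped Cldn18 at 0.0967 TPM ± 0.0702. Cldn6 had no read there.

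**Figure D1:**
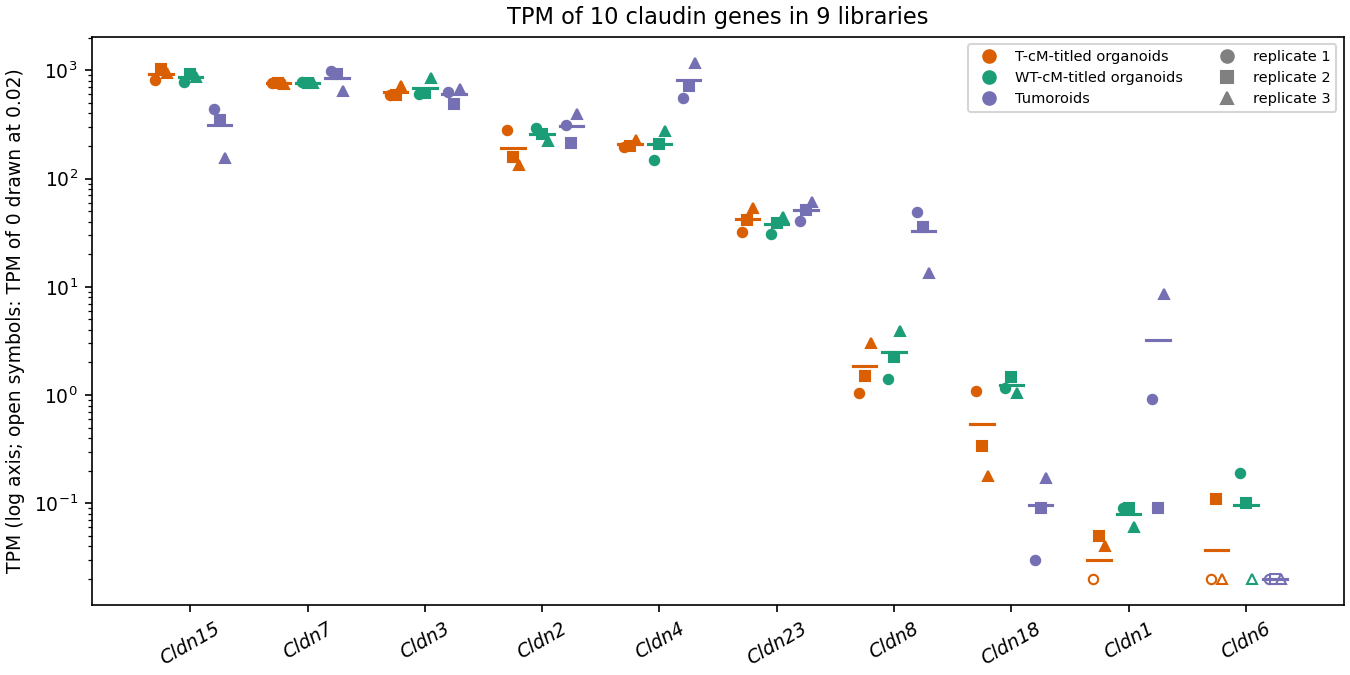
TPM of each claudin (log axis) in the 9 libraries, with colours for the 3 groups, symbols for the replicates and a bar for each group mean; open symbols are values of 0 drawn at 0.02. The tumoroid values of Cldn4 (554.54 to 1180.22 TPM) and Cldn8 (13.36 to 48.87 TPM) lie above all organoid values, and those of Cldn15 (154.73 to 437.87 TPM) below them.

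As a share of the claudin TPM, Cldn15 took 28.7% to 36.9% in the organoids and 14.5%, 12.5% and 4.94% in tumoroids 1, 2 and 3. Cldn4 took 5.64% to 8.99% in the organoids and 18.4%, 25.9% and 37.7% in the same tumoroids. Neither share overlapped between organoids and tumoroids. The share of Cldn3 was 21.3% to 28.0% in organoids and 17.5% to 21.7% in tumoroids, and that of Cldn2 was 4.74% to 11.2% against 7.76% to 12.5%, so both overlapped.

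**Figure D2:**
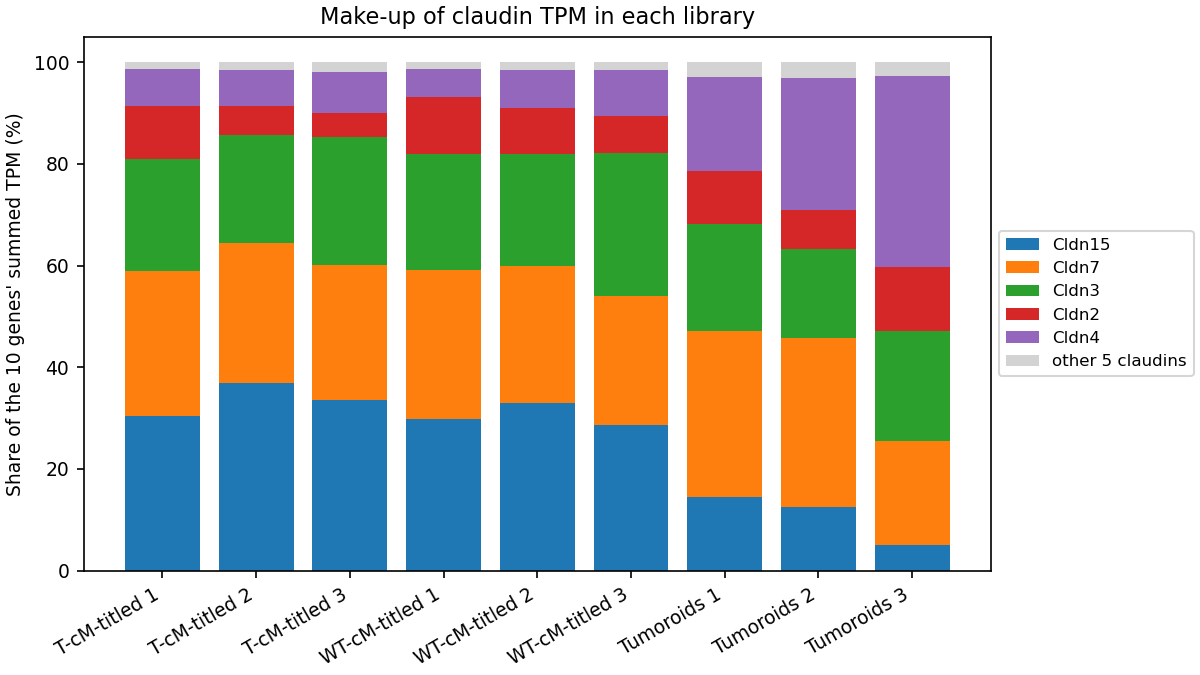
Share (%) of the summed TPM of the 10 claudins taken by each of the 5 most abundant genes and by the other 5 together, 1 bar for each library. Cldn15 takes the largest share in 6 of 6 organoid libraries and 4.94% to 14.5% in the tumoroids, where Cldn4 takes 18.4% to 37.7%.

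Cldn4, Cldn8 and Cldn1 rose in tumoroids against all organoids, Cldn1 in 2 of the 3 tumoroids, and Cldn15 and Cldn18 fell. These 3 and 2 genes passed edgeR's quasi-likelihood test at an adjusted p under 0.05 and a log2 fold change beyond 1, out of the 9 claudins tested. Over all 16208 genes tested, 21% were called higher and 12.1% lower, so the counts stand against a wide background. The median log2 fold change was -0.19 over the 9 claudins and 0.17 over all genes. Cldn6 was not tested because no library reached 1 TPM. Cldn1 reached that level in tumoroids only and Cldn18 in organoids only, so each entered the test through the group in which it was higher.

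Cldn4 encodes a barrier claudin that is also a receptor of a clostridial toxin, and lies as a gene of 1 exon on the minus strand of chromosome 5 (134945119 to 134946934, GRCm38). Its level was 197.59, 198.64 and 226.61 TPM in T-cM-titled organoids, 148.65, 208.78 and 272.56 TPM in WT-cM-titled organoids, and 554.54, 717.43 and 1180.22 TPM in tumoroids. All 3 tumoroids lay above all 6 organoid libraries, and tumoroid 3 was the highest. The log2 fold change was 1.42 (SE 0.257, adjusted p = 0.00127), or 2.68-fold. Without tumoroid 3 it was 1.06 (adjusted p = 0.0045).

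Cldn8 encodes a barrier claudin of the distal gut and kidney that partners with claudin-4, and has 1 exon on the minus strand of chromosome 16 (88560828 to 88563183). It had 1.04, 1.49 and 3.02 TPM in T-cM-titled organoids, 1.41, 2.23 and 3.91 TPM in WT-cM-titled organoids, and 48.87, 35.92 and 13.36 TPM in tumoroids. The groups did not overlap, and tumoroid 3, the highest for Cldn4, was the lowest of the tumoroids for Cldn8. The log2 fold change was 3.39 (SE 0.494, adjusted p = 3.62e-04), or 10.4-fold.

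Cldn1 encodes a claudin that is needed for the barrier of the skin, and lies on chromosome 16 (26356642 to 26371841, minus strand). The 6 organoid libraries held 0 to 2 reads each, 8 in all, and tumoroids 1, 2 and 3 held 20, 2 and 229 reads. Tumoroid 2 could not be set apart from the organoids, so the rise was carried by tumoroid 3 (8.67 TPM) and tumoroid 1 (0.91 TPM). The ratio of summed reads per normalised depth was 43.6 with a 95% counting interval of 21.8 to 102. That interval covers counting error only and leaves out the spread between libraries. The fitted log2 fold change of 5.38 (SE 1.14, adjusted p = 0.00322) rests on few reads and was 2.75 (adjusted p = 0.0331) without tumoroid 3. The call was lost with limma voom (adjusted p = 0.0656) and on the log2(TPM + 1) scale (adjusted p = 0.0563).

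Cldn15 encodes the cation pore claudin of the small intestine, and lies on the plus strand of chromosome 5 (136966616 to 136975858). Its level was 815.97, 1032.68 and 947.06 TPM in T-cM-titled organoids, 783.99, 926.38 and 870.4 TPM in WT-cM-titled organoids, and 437.87, 346.77 and 154.73 TPM in tumoroids. All 3 tumoroids lay below all organoids, with tumoroid 3 the lowest. The log2 fold change was -2.03 (SE 0.329, adjusted p = 6.89e-04), or 4.07-fold lower, and -1.71 without tumoroid 3. Enterocyte markers were lower in the same 3 tumoroids, as given above, and their part in the fall of Cldn15 was not tested.

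Cldn18 encodes a claudin known from stomach and lung, which use different first exons, and lies on the minus strand of chromosome 9 (99689461 to 99717267). Counts per gene do not tell the 2 starts apart. It had 36, 9 and 6 reads in T-cM-titled organoids, 36, 45 and 46 reads in WT-cM-titled organoids, and 1, 3 and 6 reads in tumoroids. On the CPM scale all 3 tumoroids lay below all organoids. Tumoroids had 0.0782 times the reads per normalised depth, with a 95% counting interval of 0.0368 to 0.147, which leaves out the spread between libraries. The fitted log2 fold change was -3.50 (SE 0.704, adjusted p = 0.00245). On the log2(TPM + 1) scale, which shrinks low genes, the change was -0.73 and no longer past the fold threshold. The 12 gastric markers summed to 4.14 to 24.2 TPM in organoids and to 23.7, 12.6 and 73.2 TPM in tumoroids 1, 2 and 3, so their ranges overlapped. The genes of this list went both ways. Of its 10 tested genes 5 were called higher in tumoroids, where 21% of all genes were called higher and 12.1% lower. Of these 5, Sox2, Muc5ac, Muc6 and Gif had no read in any organoid library and entered the test only through the tumoroids. Tff1, at up to 20.6 TPM in organoids, was called lower.

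Of the other abundant claudins, Cldn3 passed the adjusted p but not the fold threshold. Cldn3 encodes a barrier claudin and has 1 exon on the plus strand of chromosome 5 (134986214 to 134987472), near Cldn4 and overlapped on the other strand by Wbscr25. Its CPM was 289 to 468 in the organoids and 245, 164 and 239 in the tumoroids, without overlap, at a log2 fold change of -0.66 (SE 0.205, adjusted p = 0.0223). In TPM the same groups overlapped, at 590.68 to 849.77 against 486.84 to 678.62, and the change on the log2(TPM + 1) scale was -0.14 (adjusted p = 0.481). The adjusted p also rose to 0.0521 with organoid libraries of the same number summed, to 0.0529 with upper-quartile factors and to 0.0702 without tumoroid 2.

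Cldn7, whose protein binds Epcam along the lateral membrane, had the steadiest level of the abundant claudins in organoids, 752.95 to 773.27 TPM, and 983.19, 920.71 and 642.59 TPM in tumoroids. Its log2 fold change was -0.36 with a 95% interval of -0.75 to 0.02 (adjusted p = 0.104), and 0.13 on the log2(TPM + 1) scale. Cldn2, the crypt pore claudin on the X chromosome, gave -0.04 with an interval of -0.60 to 0.53 (adjusted p = 0.925) and 0.47 on the TPM scale. Cldn23, a claudin of differentiated gut epithelium, gave -0.19 with an interval of -0.69 to 0.31 (adjusted p = 0.513) and 0.35 on the TPM scale. The direction of these 3 genes therefore depended on the scaling and is not called. Over all genes the median change was 0.17 with TMM, 0.11 with RLE and 0.27 with upper-quartile factors, and 0.52 on the log2(TPM + 1) scale.

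**Figure D3:**
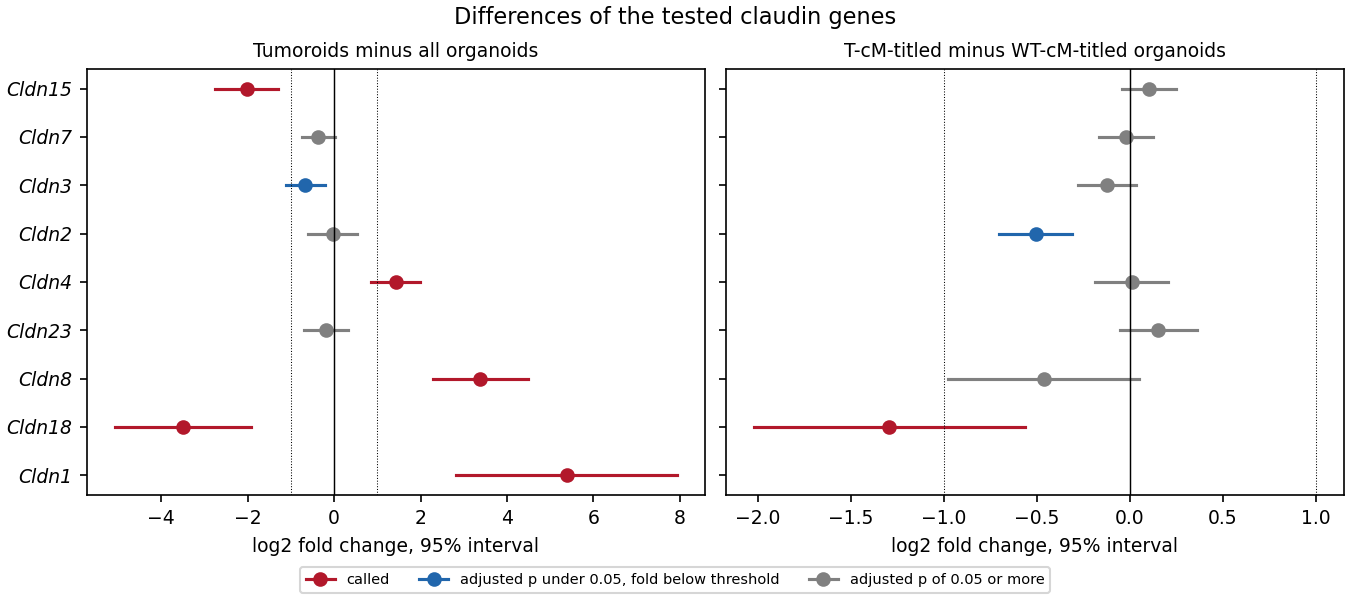
Log2 fold change (x axis) with its 95% interval for the 9 tested claudins in tumoroids minus all organoids (left), and for the same claudins except Cldn1 in T-cM-titled minus WT-cM-titled organoids (right), with dotted lines at the fold threshold. On the left Cldn1, Cldn4 and Cldn8 are called higher and Cldn15 and Cldn18 lower, and on the right Cldn18 alone is called, while Cldn2 passes the adjusted p at -0.51.

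Set against each organoid group alone, the same 5 claudins were called, in the same directions. The 2 comparisons share the tumoroids, so their values are given side by side. With the WT-cM-titled group as reference, the log2 fold changes were 1.39 for Cldn4, 3.14 for Cldn8, -1.98 for Cldn15 and -4.11 for Cldn18, where 18.2% of all genes were called higher and 11.6% lower. With the T-cM-titled group they were 1.45, 3.63, -2.07 and -2.88 in the same order, where 19.4% were called higher and 11.8% lower. Cldn1 was called in both, but its folds against either group alone are left out, since each held 0 to 2 reads per library. Its call against WT-cM-titled organoids was lost when any 1 of the 3 WT-cM-titled libraries, or tumoroid 3, was left out, and that of Cldn18 against T-cM-titled organoids was lost without T-cM-titled replicate 1.

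Between the organoid groups, Cldn18 and Cldn2 were both lower in T-cM-titled organoids, and no other tested claudin passed an adjusted p of 0.05. This comparison asks whether medium from tumoroids changed the RNA of normal epithelium, and the fit took the 6 organoid libraries and kept same-numbered ones together as blocks. By the methods WT-cM started from medium with R-spondin1, tumoroids were kept in medium without it, and conditioning times differed. These differences between the media cannot be told apart from what the cells released. Cldn18 was the only claudin called, where 0.673% of all genes were called higher and 0.432% lower. Without the fold threshold, 2 claudins were lower and 0 higher, where 5.03% of all genes were higher and 5.05% lower.

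Cldn2 had 361.6, 216.1 and 187.1 CPM in T-cM-titled organoids and 374.9, 356.9 and 323.1 CPM in WT-cM-titled organoids. The difference in log2 CPM was -0.05 in pair 1, -0.72 in pair 2 and -0.79 in pair 3, so pair 1 hardly moved. The log2 fold change was -0.51 (SE 0.0954, adjusted p = 5.84e-04). Without the replicate block the adjusted p was 0.929, without replicate 2 it was 0.491, and with limma voom and DESeq2 it was 0.0645 and 0.163.

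Cldn18 showed the same pattern across pairs, with differences of -0.06, -1.94 and -2.24 in log2 CPM. Its level was 1.10, 0.34 and 0.18 TPM in T-cM-titled organoids and 1.17, 1.47 and 1.04 TPM in WT-cM-titled organoids, where replicate 1 of the former lay within the range of the latter in TPM and just below it in CPM. The log2 fold change was -1.30 (SE 0.356, adjusted p = 0.0169). It rests on 6 to 46 reads per library, and the call was lost without the block (-1.20, adjusted p = 0.897), without replicate 2 (-0.997, 0.611) or replicate 3 (-0.90, 0.292), and with limma voom (-1.26, 0.162). Without replicate 1 the change was -2.33 (adjusted p = 1.92e-06).

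Markers of cell types also differed between the organoid groups, though not all in the pairs in which Cldn2 and Cldn18 did. Crypt stem cell markers (6 genes) were lower in T-cM-titled organoids in 3 of 3 pairs, summing to 265.5, 80.9 and 76.8 TPM against 395.8, 88.3 and 97.6 TPM in pairs 1, 2 and 3, with the largest difference in pair 1. Enterocyte markers (10 genes) summed to 30390, 37860 and 42960 TPM in T-cM-titled organoids and 29120, 53990 and 63950 TPM in WT-cM-titled organoids, so this sum was lower in pairs 2 and 3 and not in pair 1. Fabp1 made up a large part of it, at a mean of 17890 TPM against 29040 TPM, and the enterocyte genes did not move together. Fabp1 was lower at a log2 fold change of -0.61 (adjusted p = 1.43e-04), while Alpi was higher at 0.75 (adjusted p = 4.28e-08), both named after their values were seen. Paneth cell markers (6 genes) summed to 16430, 15840 and 17400 TPM in T-cM-titled and 18190, 17410 and 20510 TPM in WT-cM-titled organoids in pairs 1, 2 and 3, lower in each pair. Goblet cell markers (6 genes) summed to 4776, 4029 and 3891 TPM against 4331, 4045 and 4320 TPM in the same order, lower in pairs 2 and 3. Gastric markers (12 genes) summed to 4.83, 24.2 and 9.32 TPM against 4.14, 9.88 and 6.18 TPM, higher in each pair. Among them Tff1 alone was called by edgeR, at 1.07 (adjusted p = 0.0348), where 0.673% of all genes were called higher. It went the other way from Cldn18 and was named after its values were seen. The part of these markers in either claudin's difference was not tested.

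No other claudin passed the test in this comparison. Cldn8 was lower in 3 of 3 pairs, at a log2 fold change of -0.46 with an interval of -0.98 to 0.05 (adjusted p = 0.288). Cldn15 and Cldn23 were higher in 3 of 3 pairs, at 0.10 with an interval of -0.04 to 0.25 (adjusted p = 0.443) and 0.15 with an interval of -0.05 to 0.36 (adjusted p = 0.413). The fitted intervals were -0.17 to 0.13 for Cldn7, -0.28 to 0.03 for Cldn3 and -0.19 to 0.21 for Cldn4. The pair differences of Cldn4 in log2 CPM were 0.438, -0.108 and -0.327, of which those of pairs 1 and 3 lay outside its interval, so the pairs varied more than that interval shows. Cldn1 was at or under 3 reads in all 6 organoid libraries, and no fold is given. Cldn6, a claudin of embryonic epithelium, had 4 reads in the 9 libraries together.

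**Figure D4:**
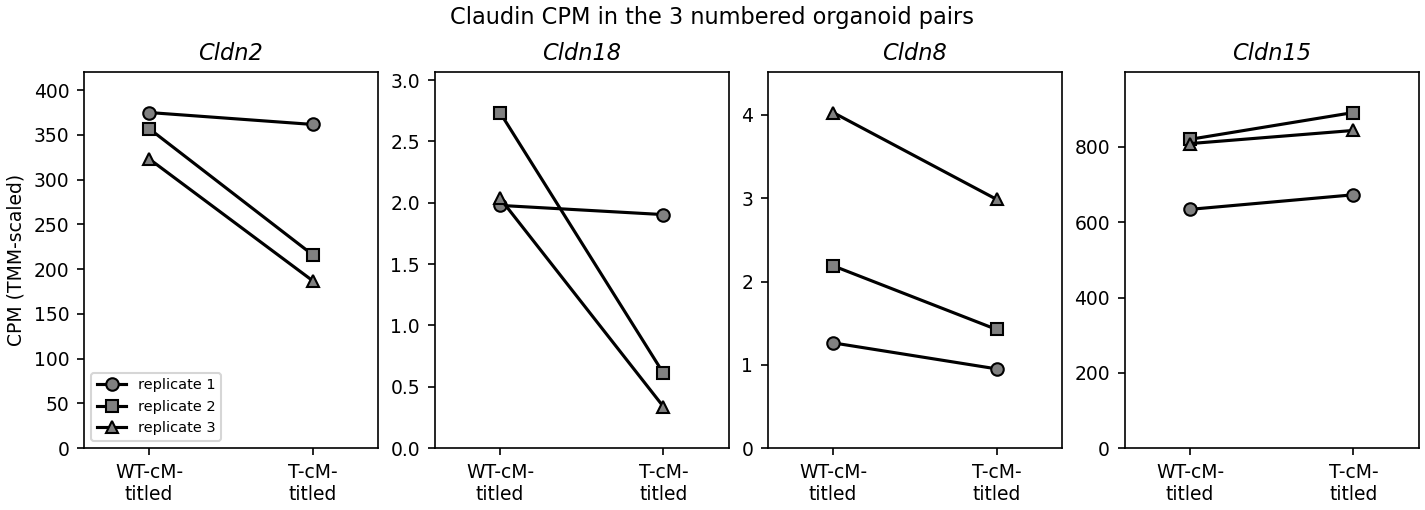
CPM (linear axes from 0) of Cldn2, Cldn18, Cldn8 and Cldn15 in WT-cM-titled and T-cM-titled organoids, with a line joining the libraries of each replicate number. The lines of Cldn2 and Cldn18 fall steeply in pairs 2 and 3 and are nearly level in pair 1.

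The wider junction was described with lists of other genes. Of the 20 genes of a list of other claudins that the table held, Cldn12 alone was tested. It had 33.84 to 47.22 TPM in organoids and 52.66 to 81.15 TPM in tumoroids, without overlap, at a log2 fold change of 0.12 from the counts (adjusted p = 0.515) and 0.61 (adjusted p = 0.00793) on the log2(TPM + 1) scale. Of 10 tested membrane proteins of the junction, 3 were called higher in tumoroids and 1 lower, counts near the 21% and 12.1% of all genes tested. Ildr1, a receptor that recruits proteins to corners where 3 cells meet, rose from 3.83 to 7.39 TPM in organoids to 62.34, 67.62 and 48.11 TPM in tumoroids. Jam2, an adhesion molecule of the junction, had 0.25, 0.61 and 7.08 TPM in tumoroids and at most 0.02 TPM in organoids, and Ildr2, a relative of Ildr1, was called on tumoroid 2 at 1.18 TPM, where the other tumoroids had 0.07 and 0.04 TPM. Neither Jam2 nor Ildr2 reached 1 TPM in any organoid library, so both entered the test only through the tumoroids, where they were high. Igsf5, a junctional adhesion molecule of the gut, fell by 1.24 on the log2 scale, from 44.7 to 66.38 TPM in organoids to 29.72 to 37.74 TPM, and passed the fold threshold under each scaling of the counts but not on the log2(TPM + 1) scale. Ocln, the gene of occludin, gave -0.39 (adjusted p = 0.0368), a direction that turned round on the log2(TPM + 1) scale.

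Among 14 tested scaffold genes, Cgnl1 alone was called, and it rose, a smaller share than the 21% of all genes called higher. On the log2(TPM + 1) scale Tjp1 and Prkci, the gene of an atypical protein kinase C, were called higher too, and with RLE factors Magi3, a scaffold gene, was called lower (the last 2 named after their values were seen). Cgnl1 encodes paracingulin, which links the junction to actin, and had 0.63 to 1.91 TPM in organoids and 36.94, 64.41 and 77.29 TPM in tumoroids (log2 fold change 5.12, adjusted p = 9.91e-07). Tjp1, the gene of ZO-1, had 41.55 to 62.85 TPM in organoids and 58.34, 231.29 and 119.11 TPM in tumoroids (log2 fold change 0.73, adjusted p = 0.0691), and 1.07 (adjusted p = 0.0234) on the log2(TPM + 1) scale.

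Epcam, whose protein stabilises claudin-7, stood at 1160.08 to 1384.27 TPM in organoids and 1350.89, 1351.36 and 1692.03 TPM in tumoroids (log2 fold change -0.34, adjusted p = 0.0658), a direction that turned round to 0.17 on the log2(TPM + 1) scale. Cdh1, the gene of E-cadherin, gave 0.06 from the counts (adjusted p = 0.761). In TPM it had 365.61 to 496.83 in organoids and 516.6 to 803.91 in tumoroids, without overlap.

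**Figure D5:**
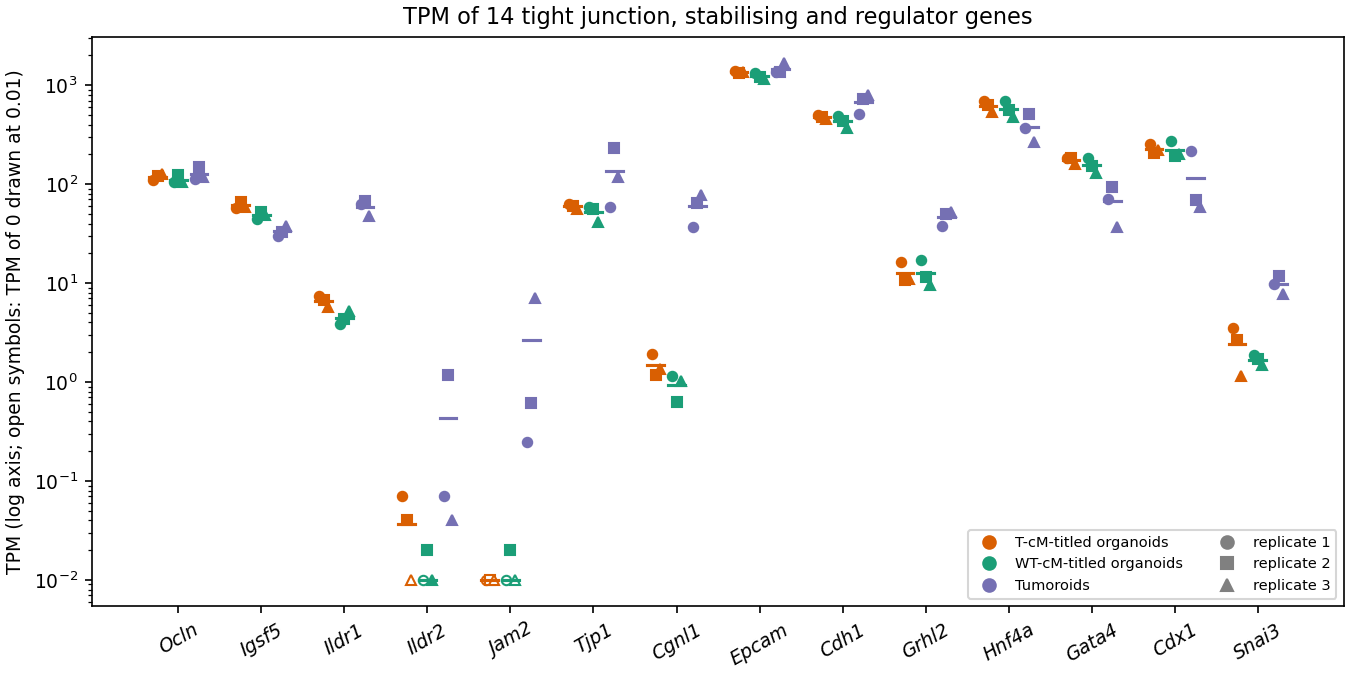
TPM (log axis) of 14 junction, claudin-stabilising and regulator genes in the 9 libraries, with a bar for each group mean; open symbols are values of 0 drawn at 0.01. Cgnl1, Ildr1 and Grhl2 lie higher in all 3 tumoroids than in any organoid library, and Gata4 lower.

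Among 9 regulators of epithelial genes, 1 was called higher in tumoroids and 3 lower, against 21% and 12.1% of all genes tested. Grhl2, a factor known to act on Cldn4, rose from 9.65 to 17.06 TPM in organoids to 37.89, 50.19 and 52.88 TPM in tumoroids (log2 fold change 1.37, adjusted p = 1.61e-04). The factors of intestinal differentiation Hnf4a, Gata4 and Cdx1 fell by 1.16, 1.82 and 1.44 on the log2 scale, and the fall of Hnf4a was not past the fold threshold on the log2(TPM + 1) scale. Of 7 genes of the Snail, Zeb and Twist families, known as repressors of junction genes, Snai3 alone was tested, and it rose from 1.16 to 3.51 TPM in organoids to 9.84, 11.76 and 7.70 TPM in tumoroids.

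Between the organoid groups no gene of these lists passed both the fold threshold and the adjusted p. At an adjusted p under 0.05 alone, 9 of the 41 listed genes tested were higher in T-cM-titled organoids and 0 lower, where 5.03% of all genes were higher and 5.05% lower. Among them were Ildr1 at a log2 fold change of 0.55, Igsf5 at 0.32, Cgn at 0.35, Patj at 0.31, Cgnl1 at 0.66, Spint1, Prss8 and Elf3, named after their values were seen. Without the block 0 of them passed, since edgeR then gave no gene of all 16208 an adjusted p under 0.601, with 904 genes at an unadjusted p under 0.05 in place of 3568.

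For each claudin the gene with the most similar profile was looked up, as the highest Pearson r of log2 CPM over the 9 libraries among genes averaging at least 10 CPM. These r are descriptions over libraries that fall into 2 tissue states. Cldn15 was most like Cyp2j9 (r = 0.998), Cldn4 like Litaf (0.989), Cldn3 like Smim22 (0.990), Cldn8 like Fam189a2 (0.985) and Cldn7 like Fam213b (0.974). Cldn2 was most like Aqp4 (0.958), a water channel, Cldn23 like Syf2 (0.980), Cldn1 like Tc2n (0.977) and Cldn18 like Gphn (0.977).

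Markers of cells outside the epithelium were low but not equal between the groups. Leukocyte markers (6 genes) summed to 1.21 to 3.68 TPM in organoids and 13.9, 32.3 and 61.9 TPM in tumoroids, nearly all of it Cd68 and Csf1r, while Ptprc stayed at or below 0.14 TPM and Cd3e was at 0 in all 9 libraries. Stromal markers (10 genes) summed to 0.43 to 1.57 TPM in organoids and 7.8, 4.21 and 94.0 TPM in tumoroids, of which Acta2 made up 92.5 TPM in tumoroid 3, while Col1a1 stayed at or below 0.22 TPM and Col3a1 was at 0 in all libraries. Endothelial markers (6 genes) summed to at most 3.15 TPM, the value of tumoroid 3, which also had the highest Cldn4 and Cldn1. The part of these markers in the claudin values was not tested.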

How the data were processed

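The authors aligned 2 × 100 paired-end reads of stranded, polyA-selected libraries to mm10 with STAR, and deposited raw read counts on Gencode genes, and TPM, the authors' values per gene length on a common library total. The counting tool and its strand setting are not given in the sources used here, so Cldn3 and Cldn18, each overlapped by a gene on the other strand, may hold reads of it. Genes at 1 TPM or more in at least 1 library (16208) were fitted in R 4.3.3 with edgeR 4.0.16 (TMM, quasi-likelihood F test in its older form, two-sided, Benjamini-Hochberg over all of them) and called at an adjusted p under 0.05 and a log2 fold change beyond 1. Organoids were compared over 6 libraries in blocks of the same replicate number, after the study's model, and tumoroids over 9 libraries without it. The numbers were taken to pair the organoid libraries because same-numbered libraries deviated together from their group means (r = 0.556, 0.375 and 0.553) and others did not. Alternatives used limma 3.58.1, DESeq2 1.42.0, other factors, filters and scales, and each library left out. The members, lists and naming rule were chosen with earlier results of these data known. Results of some listed genes are not reported here. The code was tested on simulated data with planted changes. Gene positions came from Gencode, on the same build, and the bases before starts from RefSeq (GRCm38.p6), read with Python 3.11.15.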

Additional observations from a re-analysis of the deposited data

How the results depend on the processing

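Over 633 refits of the claudin values (36 gene and comparison pairs), 586 kept direction and call, 23 lost a call and 24 changed sign. None of the latter was in a comparison where the gene was called. An uncalled gene counts as kept while it stays uncalled, so the 586 do not measure the stability of calls. Between the organoid groups Cldn18 kept its call in 4 of 12 refits. Cldn2 there counted as kept in 13 of 13, with adjusted p from 1.05e-15 to 0.929, both in edgeR. Between the organoid groups the count of 1 called claudin became 0 with limma voom, DESeq2 (which gave Cldn18 no adjusted p), edgeR 4's own form, filterByExpr, TPM with a pseudocount of 1 or 0.1 and no replicate block, 2 without the fold threshold, and 0 to 1 with a pair left out. Without the replicate block the 9 junction and regulator genes became 0, and adding a block to the tumoroid comparisons changed no call. The 5 called claudins of tumoroids against all organoids, and against T-cM-titled organoids, became 3 on the log2(TPM + 1) scale. In all 3 tumoroid comparisons they became 4 with limma voom and with filterByExpr. Against WT-cM-titled organoids they also became 4 on both TPM scales, without any 1 WT-cM-titled replicate and without tumoroid 3, and against T-cM-titled organoids 4 with a TPM pseudocount of 0.1 and without T-cM-titled replicate 1. Without the fold threshold they were 6 against all and against WT-cM-titled organoids. Sign changes were as follows. Cldn2 gave 0.47 and 0.47 (TPM, pseudocounts 1 and 0.1), 0.071 (upper quartile) and -0.24 to 0.18 (1 library left out) against all organoids, 0.22 and 0.22 against WT-cM-titled organoids, and -0.01 to 0.54 with 1 library left out against T-cM-titled organoids. Cldn7 gave 0.13, 0.13 and 0.13 on both TPM scales in the 3 comparisons. Cldn23 gave 0.35 and 0.36 against all organoids, 0.43 and 0.44 against WT-cM-titled organoids, where leaving out 1 library gave -0.297 to 0.055, and 0.27 and 0.28 against T-cM-titled organoids. Cldn4 between the organoid groups gave -0.043 without the block, -0.013 with upper-quartile factors and -0.21 to 0.17 with a pair left out. The causes were not tested. At 3 libraries a group and a few reads per library, Cldn1, Cldn6 and Cldn18 are limited by depth.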

Other observations

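Of the 12 gastric markers, some were higher in tumoroids and Tff1, a trefoil factor, was lower, at 1.51 to 20.6 TPM in organoids and 0.31, 0 and 1.03 TPM in tumoroids 1, 2 and 3. Gkn2 and Atp4b were at 0 in all 3 tumoroids and at most at 0.19 and 0.07 TPM in organoids, near the floor in every group, and were not tested. Muc5ac, a stomach mucin, was at 0 in the 6 organoid libraries and at 5.35, 0.67 and 3.24 TPM in tumoroids 1, 2 and 3, and Sox2, a factor of foregut epithelium, was at 0 in organoids and at 1.01, 0.94 and 48.53 TPM. Tumoroid 3, with the highest Sox2, also had the highest Cldn4 (1180.22 TPM) and Cldn1 (8.67 TPM) of the 9 libraries, and its Cldn18 was 0.17 TPM. With 3 tumoroids no relation between these genes was tested.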
